A study of Mus musculus with 4 samples.

Results

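The GIMAP genes (GTPases of immunity-associated proteins) encode small GTP-binding proteins that share the AIG1 domain and are found mainly in lymphocytes. They sit side by side in a single gene cluster, act largely at intracellular membranes, and are best known for setting how well naive T cells survive: loss of Gimap5 causes lymphopenia in rodents, and loss of Gimap1 depletes mature T and B cells. Their transcripts are abundant in resting T cells. The genes treated here are Gimap1, Gimap3, Gimap4, Gimap5, Gimap6, Gimap7, Gimap8 and Gimap9, 8 of the 19555 rows of the expression tables. They were chosen by family name with their values in all 4 libraries already known, so their levels and ratios are a description and carry no p-value. All 8 had a mean of at least 1 RPKM (reads per exonic kilobase, adjusted for library size), the minimum used here for ratios, which 13715 rows met.

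T cells of the naive CD4+ kind, isolated out of C57BL/6 spleen and lymph nodes, were activated and kept for 3 days with IL-6 and TGF-β1, which direct them to the T helper 17 (Th17) fate. The 4 groups were wild type (WT) at 37 °C, WT at 39.5 °C, Smad4 KO at 37 °C and Smad4 KO at 39.5 °C, each with 1 library, so no value has a replicate spread. Smad4 is the shared partner of the SMAD proteins that carry TGF-β signals; how it was deleted, in which cells, and how many mice were pooled could not be read from the labels. Smad4 stood at 14.0 and 14.2 RPKM in the WT libraries and at 20.7 and 21.3 RPKM in the libraries with the Smad4 KO label, so its level was not lower with the label, and these libraries are called KO-labelled below. The libraries held between 18047831 and 18473822 reads, recovered from the RPKM values. The 95% intervals below (exact Poisson for a level, exact Clopper-Pearson for a ratio) cover counting error only, since amplified reads lacking molecular identifiers are not separate molecules. In bulk RNA, fewer cells of a type and less RNA per cell cannot be told apart.

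The 14 T cell identity genes, Cd4 and the CD3 chains among them, all had rows and summed to 3048 to 3828 RPKM per library. Summed over the Th17 list, the level was 802 RPKM in WT at 37 °C, 2248 in WT at 39.5 °C, and 421 and 616 in the KO-labelled cultures. Il17a and Il17f carried that order by label: without them the sums were 152, 224, 183 and 244 RPKM, higher with the label at each temperature. Lists of markers of other cells had far lower sums. The B cell list had rows for 2 of 8 genes (sums of 0.387 to 1.41 RPKM; Cd79a between 0.151 and 0.485), the CD8 and NK list for 4 of 9 (4.46 to 6.26 RPKM), the erythroid and platelet list for 2 of 8 (0.178 to 0.620 RPKM) and the myeloid list for 5 of 8 (2.77, 6.20, 4.26 and 8.50 RPKM in the order WT at 37 and 39.5 °C, then Smad4 KO at 37 and 39.5 °C), of which Cd68 made up the most. The endothelial list, included because endothelium also uses some GIMAP genes, had rows for Pecam1 and Eng alone, at 4.30, 11.5, 13.2 and 13.7 RPKM in sum; both are also found on leukocytes. No marker with a row was at 0 in all 4 libraries. The part of these sums in the GIMAP values was not tested.

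The family as a whole was highest in the KO-labelled 37 °C library and lowest in WT at 39.5 °C. Summed over the 8 genes, the level was 344 RPKM in WT at 37 °C, 269 in WT at 39.5 °C, 516 in the KO-labelled 37 °C library and 392 in that at 39.5 °C. This sum rests on 15681, 13353, 22927 and 18420 reads. Gimap3 and Gimap4 made up more of it than any other member in every library; without them the sums were 145, 120, 216.5 and 164 RPKM, in the same order of libraries. Values for a gene are given from here on in that order: WT at 37 °C, WT at 39.5 °C, labelled Smad4 KO at 37 °C, labelled Smad4 KO at 39.5 °C.

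**Figure D1:**
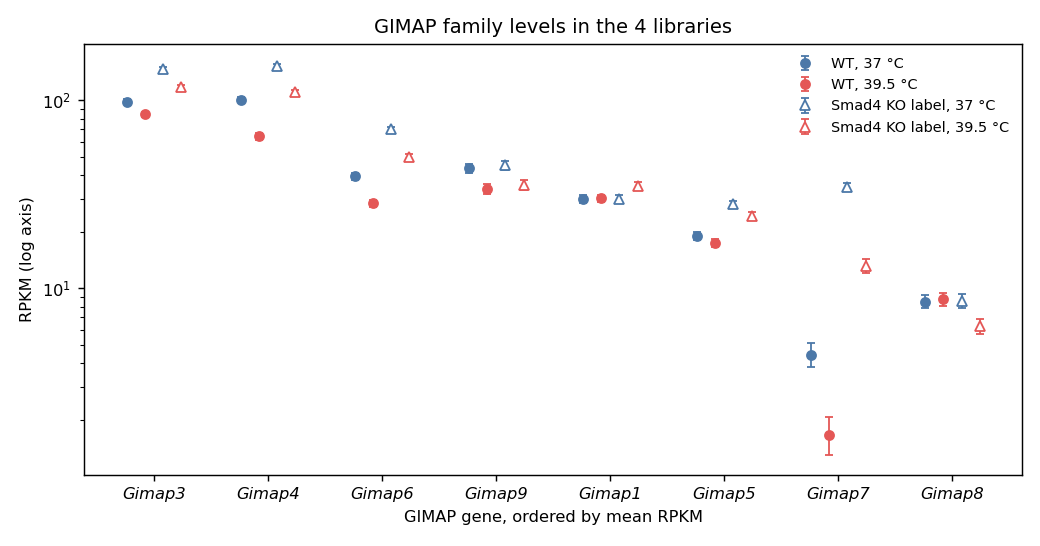
RPKM of the 8 GIMAP genes on a log axis, 1 point per library; filled circles are WT, open triangles are KO-labelled libraries, blue is 37 °C and red is 39.5 °C, and bars are exact Poisson 95% intervals of the read count. Gimap7 spans 1.65 to 34.5 RPKM while Gimap1, Gimap8 and Gimap9 stay within a narrow band.

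Gimap7 differed most between libraries. Its product is a GTPase whose activity is switched on when the protein pairs with another copy or with a related family member. The level was 4.42 RPKM in WT at 37 °C (187 reads), 1.65 in WT at 39.5 °C (74 reads), 34.5 in the KO-labelled 37 °C library (1416 reads) and 13.2 in that at 39.5 °C (563 reads). Both KO-labelled libraries were above both WT libraries, and within each genotype label the 39.5 °C library was the lower one. The ratio of the KO-labelled level to WT was 7.82 at 37 °C (95% interval 6.71 to 9.16) and 7.98 at 39.5 °C (6.25 to 10.3). At 39.5 against 37 °C it was 0.373 in WT (0.281 to 0.491) and 0.381 in the KO-labelled libraries (0.345 to 0.420). The temperature ratio and the genotype ratio were thus nearly multiplicative: the ratio of the 2 temperature ratios was 1.02. On the scale of log2(RPKM + 1), which compresses low values, the same comparison gave a difference of −0.30 between the labels, so the sign of that small difference depends on the scale. As a description of where Gimap7 stands, 33 of the 13715 rows had a higher genotype ratio at 37 °C on that scale and 21 at 39.5 °C.

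Gimap4 and Gimap6 followed the same order of libraries with smaller ratios. Gimap4, whose product is known to hasten the death of T cells once apoptosis has begun, stood at 101, 64.5, 153 and 110 RPKM. Its genotype ratio was 1.51 at 37 °C (1.45 to 1.58) and 1.71 at 39.5 °C (1.62 to 1.80), and its temperature ratio 0.639 in WT (0.606 to 0.674) and 0.723 with the Smad4 KO label (0.693 to 0.755). The WT library at 37 °C and the KO-labelled library at 39.5 °C lay close together, with the KO-labelled one the higher, so genotype groups did not overlap but temperature groups did. Gimap6, whose product binds an ATG8 family protein of the autophagy machinery, stood at 39.4, 28.4, 70.2 and 49.9 RPKM. Its genotype ratio was 1.78 at 37 °C (1.70 to 1.87) and 1.76 at 39.5 °C (1.66 to 1.86). The temperature ratio was 0.720 (0.678 to 0.764) in WT and 0.710 (0.678 to 0.743) with the Smad4 KO label.

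Gimap3 and Gimap5, a pair of close paralogues whose products carry a membrane anchor, had like genotype ratios, and temperature ratios nearer to 1. Gimap5, the survival factor of naive lymphocytes, stood at 19.0, 17.4, 28.0 and 24.3 RPKM, and Gimap3 at 98.6, 84.5, 147 and 117 RPKM. In both genes the 2 KO-labelled libraries were above the 2 WT libraries. For Gimap5 the genotype ratio was 1.47 at 37 °C (1.38 to 1.58) and 1.39 at 39.5 °C (1.30 to 1.49), and for Gimap3 it was 1.49 (1.44 to 1.55) and 1.39 (1.33 to 1.45). Temperature ratios were 0.917 (0.851 to 0.988) and 0.866 (0.812 to 0.922) for Gimap5, and 0.857 (0.822 to 0.894) and 0.796 (0.769 to 0.825) for Gimap3, in WT and with the Smad4 KO label. Of the distinct 50-base words in their annotated transcripts, 6.84% for Gimap5 and 8.15% for Gimap3 occur in transcripts of another gene, mostly in each other, so part of their reads is uncertain by gene.

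Gimap1, Gimap8 and Gimap9 did not share the genotype pattern. Gimap1, which mature lymphocytes need to persist, was flat in 3 libraries and higher in the fourth, at 29.9, 30.1, 29.9 and 35.2 RPKM. Its genotype ratio was 1.002 at 37 °C (0.935 to 1.07) and 1.17 at 39.5 °C (1.10 to 1.25). At 39.5 against 37 °C the ratio was 1.01 in WT (0.942 to 1.08) and 1.18 with the Smad4 KO label (1.10 to 1.26). Gimap9 stood at 43.5, 33.7, 45.2 and 35.6 RPKM, set apart by temperature and not by genotype: the temperature ratios were 0.774 (0.714 to 0.840) and 0.788 (0.726 to 0.854), the genotype ratios 1.04 (0.962 to 1.12) and 1.06 (0.971 to 1.15). Gimap8, whose product carries several GTPase domains in 1 chain, stood at 8.50, 8.73, 8.58 and 6.28 RPKM. The KO-labelled 39.5 °C library was the low one, with a genotype ratio of 0.719 there (0.635 to 0.815) against 1.01 at 37 °C (0.897 to 1.14). Its temperature ratio was 1.03 in WT (0.916 to 1.15) and 0.732 with the Smad4 KO label (0.644 to 0.832).

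**Figure D2:**
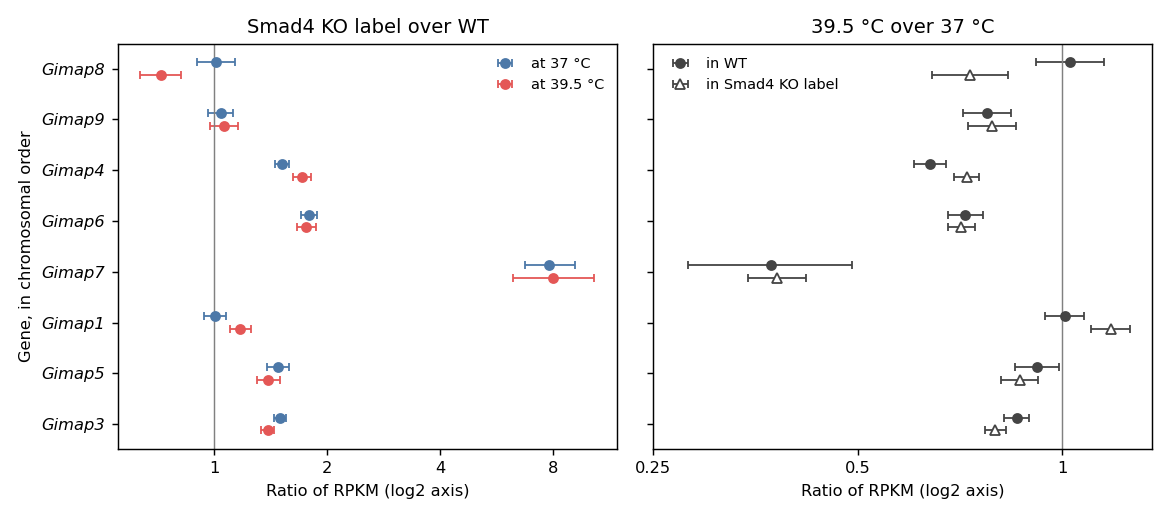
Ratios of RPKM on log2 axes for the 8 GIMAP genes in chromosomal order, labelled Smad4 KO over WT on the left (blue, 37 °C; red, 39.5 °C) and 39.5 over 37 °C on the right (filled circles, WT; open triangles, labelled Smad4 KO); bars are exact 95% counting intervals and the grey line marks a ratio of 1. Gimap7 is the farthest from 1 in all 4 comparisons, and Gimap8 has ratios on both sides of 1 in each panel.

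Gimap3, Gimap4, Gimap5, Gimap6 and Gimap7 thus had the same order of libraries, from labelled Smad4 KO at 37 °C, through labelled Smad4 KO at 39.5 °C and WT at 37 °C, down to WT at 39.5 °C. Of all rows, 29.4% had both KO-labelled libraries above both WT libraries, and 32.7% were lower at 39.5 °C within each genotype label. The share of rows with both traits, which make up this order, was not computed.

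The order of the levels changed with genotype label through Gimap7 and Gimap6. In WT at 37 °C the order from the highest was Gimap4, Gimap3, Gimap9, Gimap6, Gimap1, Gimap5, Gimap8 and Gimap7. In that library the ratio of Gimap4 to Gimap3, 1.02, was the one between neighbours whose 95% interval held 1 (0.979 to 1.07). In WT at 39.5 °C Gimap3 was above Gimap4 by a ratio of 1.31 (1.25 to 1.38), and Gimap1 and Gimap6 could not be told apart (ratio 1.06, 0.993 to 1.13). Gimap7 was last in both WT libraries. In the KO-labelled 37 °C library it was the fifth, above Gimap1 by 1.15 (1.07 to 1.24), and Gimap6 had passed Gimap9. There the pairs Gimap4 and Gimap3 (1.04, 0.999 to 1.08) and Gimap1 and Gimap5 (1.07, 0.999 to 1.14) did not differ beyond counting error. In the KO-labelled 39.5 °C library Gimap9 and Gimap1 did not (1.01, 0.938 to 1.09), and Gimap7 was the seventh, above Gimap8 by 2.09 (1.84 to 2.38). As a share of the family sum, Gimap7 made up 1.28%, 0.613%, 6.69% and 3.35%.

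Against all rows, the family's genotype medians were on the high side and its temperature medians on the low side. On the log2(RPKM + 1) scale the median over the 8 genes was 0.56 for the Smad4 KO label against WT at 37 °C and 0.46 at 39.5 °C, where all 13715 rows had medians of −0.01 and 0.0027. At 39.5 against 37 °C it was −0.29 in WT and −0.37 with the Smad4 KO label, where all rows had −0.02 and −0.0074. At 37 °C 8 members had a genotype ratio above 1, and at 39.5 °C 7 had. Scaled to total reads, Gimap1, Gimap8 and Gimap9 were below 1 at 37 °C, as was Gimap9 at 39.5 °C. In the temperature comparisons 6 of 8 were below 1 in WT and 7 of 8 with the Smad4 KO label. The exact shares of all rows above or below 1 were not computed, and the medians of all rows given above lie near a ratio of 1. The median difference between the temperature responses, labelled Smad4 KO minus WT, was −0.05, with members from −0.43 (Gimap8) to 0.22 (Gimap1) and a median of −0.0028 over all rows. These medians of the family were known when it was chosen and are not set against chance.

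Few members passed a size rule. Gimap7 was the 1 member at least 2-fold higher with the Smad4 KO label, at 37 °C (4.7% of all rows passed) and at 39.5 °C (2.3%); 0 members were 2-fold lower (1.14% and 1.05% of rows). It was also the 1 member at least 2-fold lower at 39.5 °C, in WT (0.525% of rows) and with the Smad4 KO label (0.911%), with 0 members 2-fold higher (1.46% and 0.751% of rows). In WT that call rests on a value just past the rule (log2 −1.03) and was lost when libraries were scaled to total reads. At 1.5-fold, Gimap4, Gimap6 and Gimap7 were higher with the Smad4 KO label at 37 °C (11.5% of rows) and at 39.5 °C (9.06%), Gimap4 and Gimap7 were lower at 39.5 °C in WT (2.6%), and Gimap7 was lower with the Smad4 KO label (3.81%). Without a fold rule, 5 members (Gimap3, Gimap4, Gimap5, Gimap6 and Gimap7) had both KO-labelled libraries above both WT libraries, which held for 29.4% of all rows, and 0 had both below (30.1% of rows). Under median of ratios scaling Gimap1 also had both above, and scaled to total reads Gimap8 had both below. Both 39.5 °C libraries were above both 37 °C libraries for Gimap1 (13.1% of rows) and below for Gimap9 (12.9%). For Gimap1 the higher 37 °C library (29.9 RPKM) and the lower 39.5 °C library (30.1 RPKM) differed by less than the counting interval of either, and under median of ratios scaling they overlapped. Lower at 39.5 °C within each genotype label were 6 members, all but Gimap1 and Gimap8, against 32.7% of all rows.

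**Figure D3:**
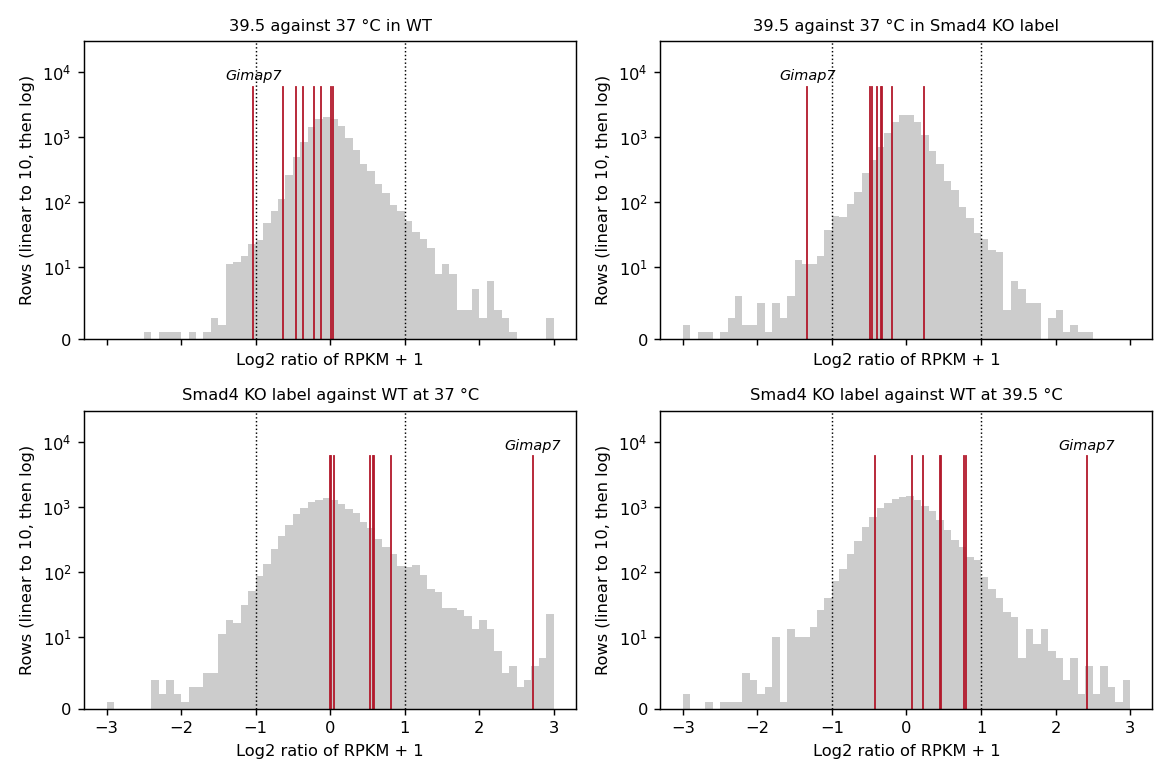
Distribution of the log2 ratio of RPKM + 1 over 13715 rows in the 4 comparisons (grey bars; the vertical axis is linear to 10 and logarithmic above, and ratios beyond 3 or below −3 are counted in the outermost bars), with the 8 GIMAP genes as red lines and the 2-fold rule dotted. Gimap7 is the 1 member past the dotted lines, at 2.71 and 2.42 in the genotype comparisons and −1.03 and −1.33 in the temperature comparisons.

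The cluster spans 124 kb of chromosome 6, positions 48647234 to 48770851 of GRCm38 (mm10) in the GENCODE vM21 annotation, with 6 members on the plus strand and 2, Gimap6 and Gimap3, on the minus strand. From its start the order is Gimap8 (48647234 to 48660875), Gimap9 (48676129 to 48679114), Gimap4 (48684549 to 48692060), Gimap6 (48701582 to 48708225), Gimap7 (48718621 to 48724636), Gimap1 (48739054 to 48743795), Gimap5 (48746197 to 48754210) and Gimap3 (48764464 to 48770851). The 5 genes with both KO-labelled libraries above both WT libraries are thus not 1 unbroken block. Gimap1, with a genotype ratio of 1.002 at 37 °C and 1.17 at 39.5 °C, lies between Gimap7 and Gimap5. Gimap8 and Gimap9, also without the pattern, are the first members of the cluster. Gimap1os, a non-coding transcript on the minus strand, overlaps 36.0% of the exonic bases of Gimap1 and stood at 2.04, 1.19, 3.15 and 1.89 RPKM (115, 71, 172 and 108 reads). Its genotype ratio was 1.54 at 37 °C (1.21 to 1.97) and 1.60 at 39.5 °C (1.17 to 2.18), unlike that of Gimap1. The labels do not say whether counting used strand, so reads from Gimap1 and Gimap1os cannot be told apart where they overlap. Gm28053, an annotated protein-coding gene without a row, also overlaps exons of Gimap7, Gimap1 and Gimap5. The overlap is 3.48%, 6.44% and 3.69% of their exonic bases, on the same strand, so strand could not separate reads there.

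No gene beside the cluster with a mean of 1 RPKM or more had a genotype ratio as high as that of Gimap7, but some shared its direction. Within 500 kb of its ends the annotation places 21 other protein-coding genes, of which 13 had a row and 9 a mean of at least 1 RPKM. On the log2(RPKM + 1) scale none of the 9 was 2-fold higher with the Smad4 KO label, and their median was 0.12 at 37 °C and 0.25 at 39.5 °C. Zfp467, a zinc finger gene 201 kb before the cluster, missed the rule through the added 1: it stood at 0.284, 0.560, 1.20 and 2.004 RPKM, a genotype ratio of 4.22 at 37 °C and 3.58 at 39.5 °C, and unlike Gimap7 it was higher at 39.5 °C. Lrrc61, 76.5 kb before the cluster, stood at 3.54, 2.61, 5.29 and 3.80 RPKM, with genotype ratios of 1.49 and 1.46 and temperature ratios of 0.738 and 0.719. The nearest measured gene before the cluster was the zinc finger gene Zfp775, at 3.80, 3.33, 4.61 and 4.13 RPKM. Lrrc61 and Zfp775 thus had the order of libraries of Gimap3, Gimap4, Gimap5, Gimap6 and Gimap7. Krba1, Repin1, Malsu1 and Tra2a stayed within 2-fold. The nearest after it, 63.0 kb beyond Gimap3, was Tmem176b, which encodes a membrane channel protein and stands beside its sister gene Tmem176a. Both were lower with the label: Tmem176b stood at 6.55, 8.43, 3.30 and 1.76 RPKM and Tmem176a at 4.12, 5.08, 2.44 and 1.21 RPKM, and these were the 2 neighbours at least 2-fold lower at 39.5 °C.

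**Figure D4:**
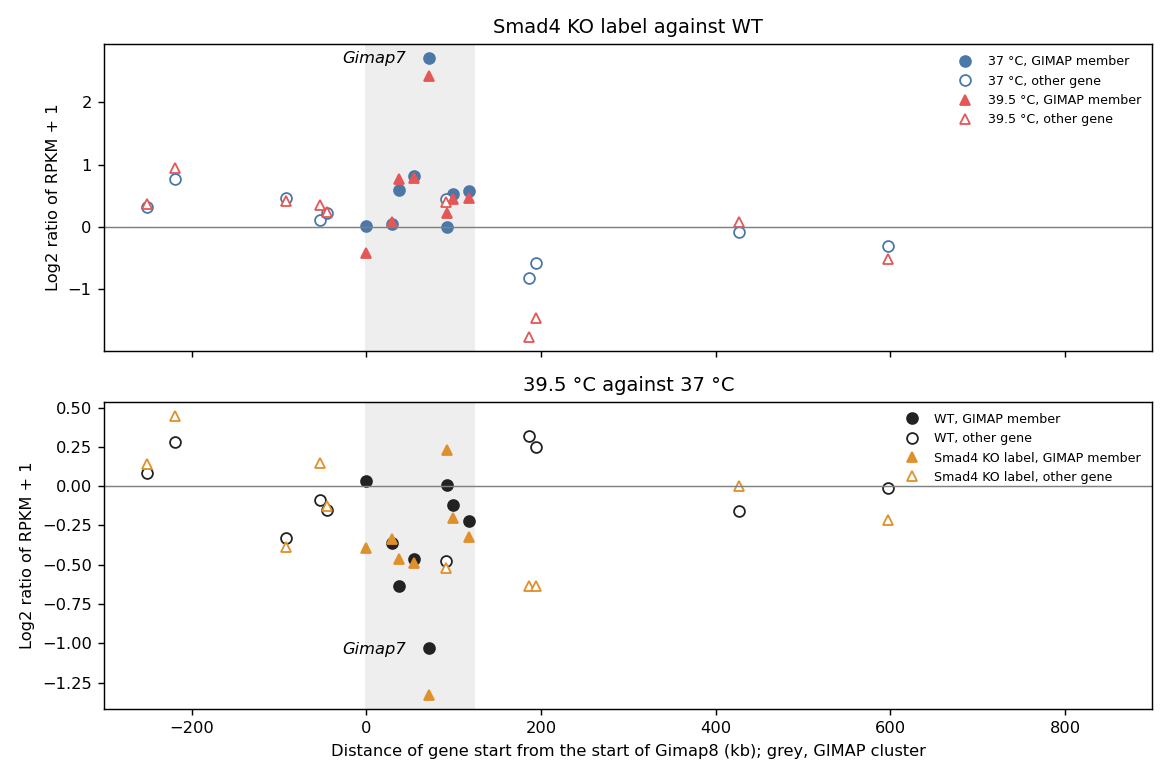
Log2 ratio of RPKM + 1 against the distance of each gene's start from the start of Gimap8, in kb, for measured genes within 500 kb of the cluster; the upper panel shows the Smad4 KO label against WT and the lower panel 39.5 against 37 °C, with filled symbols for the 8 members, open symbols for other genes (Gimap1os among them) and the cluster in grey. Gimap7 stands apart within the cluster, and the open symbols near 190 kb are Tmem176b and Tmem176a.

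RefSeq start sites on GRCm38.p6 gave 9 promoters for the 8 members (Gimap8 has 2), each taken as the 250 bases before the start. Printed here are those of Gimap7, the member that differed most, and of its neighbour Gimap1. Also printed are those of Gimap3 and Gimap4, the members in which a searched motif was found. The capitals mark that motif. These promoters lie, in the order named, at chr6:48718371-48718620 (plus strand), chr6:48738797-48739046 (plus), chr6:48770852-48771101 (minus) and chr6:48684328-48684577 (plus). They are given 5′ to 3′ on the strand of the gene.
Gimap7: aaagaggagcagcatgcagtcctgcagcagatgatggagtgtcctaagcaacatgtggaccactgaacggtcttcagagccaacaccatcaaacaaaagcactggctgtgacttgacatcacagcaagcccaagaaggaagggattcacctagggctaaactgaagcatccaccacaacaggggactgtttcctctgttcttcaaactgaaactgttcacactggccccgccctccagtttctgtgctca
Gimap1: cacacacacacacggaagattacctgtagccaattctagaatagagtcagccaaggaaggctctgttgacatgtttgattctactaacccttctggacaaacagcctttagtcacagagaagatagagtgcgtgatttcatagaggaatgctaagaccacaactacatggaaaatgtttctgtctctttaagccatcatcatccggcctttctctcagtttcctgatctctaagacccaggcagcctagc
Gimap3: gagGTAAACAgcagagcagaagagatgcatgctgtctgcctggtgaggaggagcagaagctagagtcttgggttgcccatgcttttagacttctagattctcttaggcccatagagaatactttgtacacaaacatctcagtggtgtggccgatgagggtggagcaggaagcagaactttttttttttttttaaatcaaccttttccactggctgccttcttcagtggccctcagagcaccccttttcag
Gimap4: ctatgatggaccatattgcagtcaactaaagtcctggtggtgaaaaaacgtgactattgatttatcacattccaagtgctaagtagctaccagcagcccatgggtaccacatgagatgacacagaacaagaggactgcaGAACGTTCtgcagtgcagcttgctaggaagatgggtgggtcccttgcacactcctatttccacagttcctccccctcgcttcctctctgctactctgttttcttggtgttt

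Motifs for 7 factor families were searched on both strands. The FOXO motif GTAAACA was found in the Gimap3 promoter, 247 bases before the start, and is in 3.17% of 32851 promoters of the same length. The heat shock letters GAANNTTC were found in the Gimap4 promoter, 111 bases before the start, and are in 6.69% of all. No member's window held the ETS letters CCGGAAG (6.91% of all promoters), the RUNX letters TGTGGTT (4.40%), the KLF letters GGGTGTG (6.93%), the AP-1 letters TGACTCA (4.46%), the SMAD palindrome GTCTAGAC (0.167%) or the GC-rich SMAD letters GGCGCC (9.59%). The windows of Gimap7 and Gimap1, whose ratios differ most among neighbours, held none of the letters searched. A match describes the sequence and is not a bound site, and a missing match covers only these letters and these 250 bases.

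Genes of resting T cells, where GIMAP transcripts are known to be abundant, were partly higher with the Smad4 KO label. Of 18 measured genes of the naive and quiescence list, 6 were at least 2-fold higher at 37 °C (Klf2, Il7r, Btg2, Tsc22d3 and Igfbp4 among them) and 0 lower, with a median log2 ratio of 0.50. At 39.5 °C 3 were higher (Klf2 and Igfbp4 among them) and 1 lower, Klf6, with a median of 0.27. Klf2, a factor that keeps T cells quiescent, stood at 4.25, 3.25, 18.4 and 17.9 RPKM, apart by genotype label and less so by temperature. The abundant members Ccr7 (373, 349, 356 and 333.5 RPKM) and Slfn2 (270, 250, 205 and 206 RPKM) did not share this. At 39.5 against 37 °C in WT, Klf6 was 2-fold higher and Igfbp4 2-fold lower. In the T cell activation list of 14, Tnfrsf9 was 2-fold higher and Batf 2-fold lower with the label at 37 °C, with medians of −0.30 at 37 °C and −0.27 at 39.5 °C. Tnfrsf9 was also 2-fold lower at 39.5 against 37 °C with the Smad4 KO label, the list's only call by temperature (log2 −1.01). Tnfrsf9, a costimulatory receptor, stood at 51.5, 75.7, 198 and 98.0 RPKM and Batf, a partner of AP-1 factors, at 116, 116, 46.6 and 61.9 RPKM. The abundant Tnfrsf4 (623, 530.0, 699 and 660.5 RPKM) and Irf4 (499, 456, 528 and 389 RPKM) stayed within 2-fold.

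Genes of the Th17 list that passed the size rule went the other way from Gimap7: of 9 measured genes 4 were 2-fold higher at 39.5 °C in WT (Il17a, Il17f, Il23r and Il1r1) and 2 with the Smad4 KO label (Il17a and Il23r). With the label, 4 were 2-fold lower at 37 °C (Il17a, Il17f, Rora and Ccr6), and these and Il1r1 were at 39.5 °C. Il17a, which encodes the cytokine that names the cells, stood at 134, 686, 32.6 and 79.7 RPKM, its relative Il17f at 516, 1338, 206 and 292 RPKM, and the chemokine receptor gene Ccr6 at 28.3, 33.5, 4.98 and 6.62 RPKM. Il1r1, an interleukin-1 receptor gene, stood at 2.90, 13.8, 1.05 and 2.38 RPKM. Ccl20 and Maf were higher with the label at both temperatures, within 2-fold. In the T cell identity list, Cd247 was 2-fold higher at 39.5 °C in WT and 2-fold lower with the label at both temperatures, Zap70 was 2-fold lower and Cd2 2-fold higher with the label at 37 °C, and the other genes stayed within 2-fold, the abundant Cd5 (731, 488, 901 and 873 RPKM) and Trac (564, 624, 599 and 634 RPKM) among them. Cd247 stood at 21.4, 58.4, 9.06 and 15.6 RPKM and Cd2 at 158, 161, 445 and 264 RPKM.

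The BCL2 family and the genes of ATG8 conjugation, lists that hold known partners of GIMAP proteins, showed no like pattern as groups. Of 13 measured BCL2 family genes, Bcl2 and Bbc3 were at least 2-fold higher with the Smad4 KO label at 37 °C, 0 at 39.5 °C, and the medians were 0.05 and 0.04. Bcl2, whose product guards mitochondria and is a known partner of Gimap3 and Gimap5, stood at 4.2, 6.62, 18.0 and 10.8 RPKM. Its own ratio of the KO-labelled level to WT was 4.30 at 37 °C and 1.63 at 39.5 °C. Bbc3, which encodes PUMA, stood at 5.22, 18.4, 11.8 and 19.4 RPKM, and with Pmaip1 was 2-fold higher at 39.5 °C in WT. Bak1 (118, 129, 122 and 147 RPKM) and Mcl1 (71.9, 69.4, 81.9 and 63.3 RPKM) had the highest means. Of 14 genes of ATG8 conjugation, the autophagy step in which the partner of Gimap6 takes part, 0 passed the 2-fold rule in any comparison. Gabarap, an ATG8 protein, stood at 86.4, 98.5, 88.4 and 86.1 RPKM, and Atg3, the enzyme that attaches such proteins to lipid, at 12.3, 9.97, 7.24 and 7.56 RPKM. Gabarapl1 stood at 51.2, 55.8, 58.5 and 57.3 RPKM and Map1lc3a at 6.74, 9.52, 3.79 and 7.50 RPKM.

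A list of other immunity-related GTPases was also higher with the label. These interferon-inducible proteins, the GBP and IRG families among them, also bind GTP but are not of the GIMAP family. Of 9 measured genes, 6 were at least 2-fold higher with the Smad4 KO label at 37 °C (Gbp2, Irgm2, Igtp, Tgtp1, Tgtp2 and Gvin1) and 5 at 39.5 °C, with medians of 1.13 and 1.08 and 0 lower. Gbp2 stood at 89.2, 71.5, 197 and 165 RPKM, Gvin1 at 1.93, 1.48, 9.88 and 7.29 RPKM, Igtp at 16.4, 30.8, 49.1 and 55.7 RPKM, and Tgtp1 at 1.37, 3.09, 6.86 and 12.7 RPKM. Between Tgtp1 and Tgtp2, nearly the same in sequence, the split of reads is uncertain. With temperature the medians of this list were on the other side from the GIMAP family, 0.40 in WT and 0.18 with the Smad4 KO label. Gbp2 and Gvin1 went against those medians and had the order of libraries of Gimap3, Gimap4, Gimap5, Gimap6 and Gimap7. The difference between this list and the GIMAP family was not tested.

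Of the lymphocyte regulators whose motifs were searched, or that act with them, 1 of 15 measured was at least 2-fold different in any comparison: Klf2, with the genotype label at both temperatures. Runx3 stood at 47.9, 36.6, 95.8 and 66.0 RPKM, Ets1 at 65.8, 64.7, 111 and 75.5 RPKM, and Smad3 at 25.0, 19.4, 41.9 and 29.9 RPKM. Klf2, Runx3, Ets1 and Smad3 had the same order of libraries as Gimap3, Gimap4, Gimap5, Gimap6 and Gimap7. It ran from labelled Smad4 KO at 37 °C down to WT at 39.5 °C.

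The rows whose pattern over the 4 libraries was nearest to the family's mean pattern, by Euclidean distance between centred log2(RPKM + 1) profiles among 8937 rows averaging at least 5 RPKM, were RP23-4F16.9 (distance 0.0217), RP23-36C9.2 (0.0326), Ablim1 (0.0328), AC159092.3 (0.0331) and the pseudogene Rpl3-ps2 (0.0502). Ablim1, which encodes an actin-binding LIM protein, stood at 23.3, 18.5, 37.1 and 28.1 RPKM. Among the members the distance to that mean ran from 0.155 for Gimap3 to 2.10 for Gimap7, farther than the rows just named. Those rows were picked out of 8937 for their closeness to the mean, and the members were not. With 4 libraries such likeness is a description only.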

How the data were processed

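RNA-seq of 4 mouse cultures, 1 library each, was used as RPKM tables that the authors deposited, 1 per library. Reads were trimmed with Trim Galore 0.4.4, aligned to mm10 with Bowtie2 and counted with featureCounts (Subread), with edgeR also named, per the submitters' processing notes; the roles of these tools beyond their usual ones, the annotation release and the strand setting were not stated there. Groups were taken from the sample labels. The deposited RPKM values gave whole reads once multiplied by exonic length and library size: 12053 of 13143 rows with an annotated GENCODE vM21 length (91.7%) came out whole within 0.01 reads, all 8 members among them. The recovered depth was 18047831 to 18473822 reads, against library sizes of 17639131 to 19308699 behind the RPKM scaling, which differ from the recovered totals by ratios of 0.955 to 1.06. On simulated data the recovery was exact in 100% of 2820 rows whose length was supplied. Rows without a fitting annotated length took the smallest length that gave whole reads. That check does not cover them, and the recovered depth includes them.

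Ratios were computed from RPKM with exact 95% Clopper-Pearson intervals and on log2(RPKM + 1) for rows averaging 1 RPKM or more, with 2-fold as the size rule. A fold change on the log2 scale understates the change of low genes. No model was fitted and no p-value is given, because each group has 1 library and the members were selected on these values; an additive fit over the 4 libraries could have been made and was not used. The members and gene lists were chosen with earlier results of these data known. Named were all members, other Gimap rows, the measured neighbours of the cluster within 500 kb, the 5 rows nearest in profile, and from each pathway list the 2 genes of highest mean and the 2 of largest change, besides other genes that pass the size rule and marker genes. From that rule, 1 gene of the naive and quiescence list is counted but not reported here. Promoters came from RefSeq on GRCm38.p6. Python 3.11.15, numpy 2.4.6, scipy 1.17.1, pandas 2.3.3 and matplotlib 3.10.9 were used. Alternatives were a pseudocount of 0.1, no filter, a minimum mean of 5 RPKM, 3 other scalings, a 1.5-fold rule and leaving out Gimap3 and Gimap5.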

Additional observations from a re-analysis of the deposited data

Results flagged for a closer look

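These results had opposite signs in the 2 arms of a comparison, so that a change seen in 1 genotype label or at 1 temperature ran the other way in the other. With 1 library per group the differences were not tested, and the values are on the log2(RPKM + 1) scale.

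The temperature response, taken as labelled Smad4 KO minus WT, differed for Gimap8 by −0.43, from 0.03 in WT to −0.40 with the label. Of the neighbouring genes it differed by −0.89 for Tmem176a and −0.96 for Tmem176b, both above 0 in WT and below 0 with the label. The same direction was seen for Tnfrsf9 (−1.55), Bcl2 (−1.24), Cd2 (−0.78), Cd8b1 (−0.50), Gabarap (−0.23) and Gabarapl1 (−0.15). The opposite direction was seen for Slfn2 (0.12) and Atg3 (0.33), both below 0 in WT.

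The genotype difference, taken as 39.5 minus 37 °C, likewise changed sign for Gimap8 (−0.43), from 0.01 at 37 °C to −0.42 at 39.5 °C; scaled to total recovered reads, the value at 37 °C was −0.06 and the sign did not change. It also did for Irf4 (−0.31), Mcl1 (−0.31), Gabarap (−0.23), Cd8b1 (−0.50) and Eng (−1.04), each above 0 at 37 °C and below 0 at 39.5 °C. For Gimap8 both arms above 0 were within counting error of no change, with 95% intervals of 0.916 to 1.15 for its temperature ratio in WT and 0.897 to 1.14 for its genotype ratio at 37 °C.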

How the results depend on the processing

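Of 192 values for single members under the alternatives, 184 stayed close to their main value. No filter and a minimum mean of 5 RPKM could not change a member's value, since every member averaged more than 5 RPKM. The 8 that moved were all under scaling to total recovered reads. No value past the size rule changed sign. Under another scaling 6 small values of Gimap1, Gimap8 and Gimap9 changed sign, all within 0.08 of 0 on the log2 scale. The median over the 8 genes at 39.5 against 37 °C ranged from −0.41 to −0.22 in WT and from −0.43 to −0.31 with the Smad4 KO label, and the genotype median from 0.32 to 0.57 at 37 °C and 0.38 to 0.49 at 39.5 °C. Scaled to total recovered reads, the genotype medians were 0.48 at 37 °C and 0.38 at 39.5 °C, and the count of members 2-fold lower at 39.5 °C in WT was 0, since Gimap7 is just past the rule there. At 1.5-fold that count was 2, and the counts higher with the Smad4 KO label were 3 at 37 °C and 3 at 39.5 °C. Without Gimap3 and Gimap5 the median was −0.41 at 39.5 against 37 °C in WT and 0.32 for the label at 37 °C. The largest shift of the median of all rows by a scaling was 0.074. Depth limits Gimap7 most, at 74 reads in WT at 39.5 °C.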

Other observations

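Some genes outside the family had the same order of libraries as Gimap3 to Gimap7; they were picked after their values were seen, and no test was made. Igfbp4, which encodes a binding protein of insulin-like growth factors and is expressed by naive T cells, stood at 141 RPKM (WT, 37 °C), 65 (WT, 39.5 °C), 329 (KO-labelled, 37 °C) and 173 (KO-labelled, 39.5 °C). Pecam1, an adhesion receptor of endothelium that naive T cells also carry, stood at 2.74, 1.49, 9.48 and 4.82 RPKM. Eng, the other endothelial marker with a row and a co-receptor for TGF-β, did not follow it, at 1.56, 9.97, 3.71 and 8.83 RPKM.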
